A study of Mus musculus with 36 samples.

Results

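The cytosolic ribosomal proteins are the structural proteins of the ribosome that translates nuclear-encoded mRNAs, and their mRNAs were followed in mouse liver from before birth to adulthood. The genes were chosen by symbol alone, as every row named Rpl, Rps or Rplp followed by a number and at most the letter a, x or y. This rule took 76 of the 21889 genes in the table, namely 43 proteins of the large subunit, 3 proteins of its stalk (Rplp0, Rplp1 and Rplp2) and 30 proteins of the small subunit. The rule itself uses no measured value, but the genes and gene lists of this report were chosen with earlier results of these data known. The samples were 36 livers of male C57BL/6 mice (C57BL/6J in the methods of the study), with no treatment or altered allele named, drawn from several litters, with 3 mice at each of 12 ages. These were GD17.5, a late day of gestation that the labels call Day -2, and after birth Days 0, 1 and 3, Days 5 and 10, Days 15 and 20, Days 25 and 30, and Days 45 and 60. Day 0 preceded suckling, weaning fell between Day 20 and Day 25, and Day 60 served as the adult control. Each mouse gave 1 RNA-Seq library of poly(A) RNA, and its values were FPKM, the fragments of a gene scaled to the length of its transcript and to the mapped fragments of the library. Of the 76 genes, 72 passed the filter on low values, an average over the 3 mice of 1 FPKM or more at any age, which 11149 genes of the table passed.

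Most ribosomal proteins are made in equal numbers for each ribosome, in step with the ribosomal RNA that they coat, and a cell that grows or divides spends much of its protein synthesis on them. Their mRNAs belong to the class that begins with a run of pyrimidines (C or T in DNA) at the very 5′ end, the 5′ terminal oligopyrimidine tract, by which translation is tuned to nutrients and growth signals. In the mouse genome most of these genes have processed pseudogenes, copies of the spliced mRNA that can share sequence with RNA-Seq reads. The fetal liver is the main site of blood formation and holds many dividing erythroid cells, which leave the organ around and after birth. In whole liver, fewer cells of a type and less RNA per cell cannot be told apart.

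The start sites carry the sequence that sets this gene class apart, and 8 are printed here for genes on which the results below turn. Each window holds 15 bases before and 15 bases from the RefSeq transcription start, on the strand of the gene, in build GRCm38.p6, so that it joins the proximal promoter to the first bases of exon 1 and its 5′ UTR. Capitals mark the longest run of C and T that touches the 5 bases on either side of the start. Rps6 lies at chr4:86857353-86857382 on the minus strand, Rps9 at chr7:3704026-3704055 on the plus strand, Rpl14 at chr9:120571502-120571531 on the plus strand, Rplp2 at chr7:141447636-141447665 on the plus strand, Rps27 at chr3:90213634-90213663 on the minus strand, Rpl41 at chr10:128549154-128549183 on the minus strand, Rplp0 at chr5:115559452-115559481 on the plus strand, and Rpl22 at chr4:152324421-152324450 on the plus strand.
Rps6: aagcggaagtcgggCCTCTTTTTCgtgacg
Rps9: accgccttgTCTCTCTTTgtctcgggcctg
Rpl14: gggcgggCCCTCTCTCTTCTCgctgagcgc
Rplp2: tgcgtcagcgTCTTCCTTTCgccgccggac
Rps27: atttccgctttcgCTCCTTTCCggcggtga
Rpl41: cacacgggccggCTCggaagtgacgacacc
Rplp0: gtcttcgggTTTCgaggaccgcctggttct
Rpl22: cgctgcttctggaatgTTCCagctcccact

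The first 5 windows held a run of 9 to 14 pyrimidines over or next to the start, and the last 3 held no run of the 7 bases asked for. Of the 76 genes, 55 matched an entry of the RefSeq promoter table, and 26 of these (47.3%) had a run of at least 7 C or T, read on the strand of the gene, at 1 of their listed starts. The same search found a run in 15.7% of all 27025 promoters of the table, in 13.4% of 67 promoters of mitochondrial ribosomal proteins and in 12.5% of 32 promoters of proteasome subunits. For translation factors listed below as having pyrimidine tract mRNAs, it found a run in 4 of 12 promoters (33.3%). With only the first listed start, the shares were 41.8% of the 55 and 13.5% of all promoters. A listed start that is off by a few bases hides a run, so a missing match says only that these letters are not in the window.

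The level of these mRNAs fell with age. Summed over the 76 genes, the FPKM was 14674, 21568 and 18112 in the 3 mice of GD17.5, which was 3.84% to 4.85% of the summed FPKM of all genes in those mice. It was 13006, 13907 and 14785 at Day 0, and 8158, 11110 and 9353 at Day 5. The sum then dropped to 4160, 5093 and 6144 at Day 10 and was 3020, 3734 and 4207 at Day 60, or 0.73% to 1.07% of all FPKM. All 15 mice from GD17.5 to Day 5 lay above all 21 later mice. Among the later ages the groups overlapped, from 2666 in a mouse of Day 45 to 6144 in a mouse of Day 10. The mean at GD17.5 was 4.96 times that at Day 60, at Day 5 it was 2.61 times and at Day 10 it was 1.40 times. With the libraries scaled by the median of ratios these were 2.83, 1.47 and 1.07 times.

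**Figure D1:**
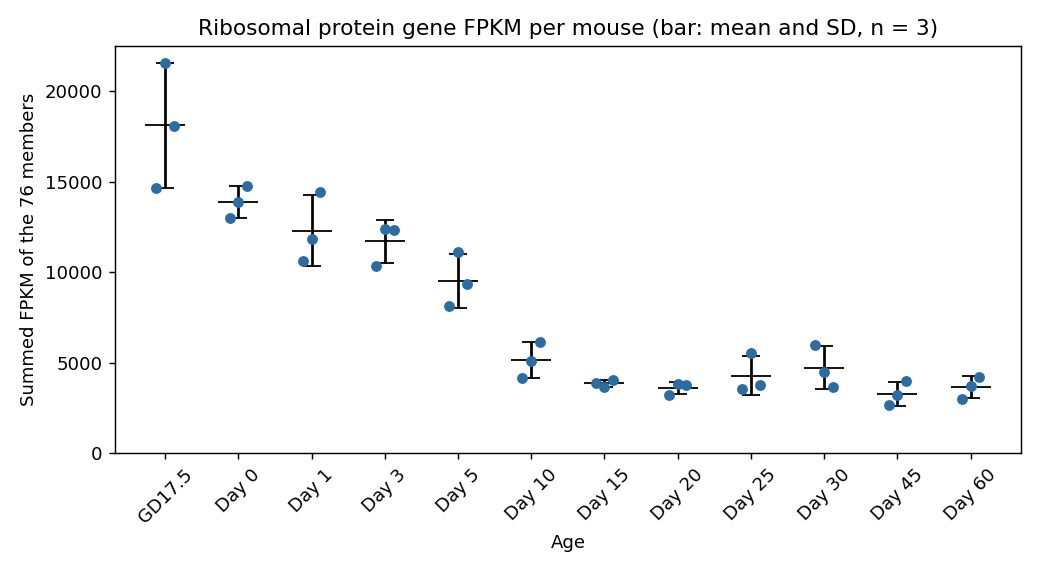
Summed FPKM of the 76 ribosomal protein genes (vertical axis) in each of the 36 mice by age (horizontal axis); points are mice and the bar gives the mean and SD of 3. The sum was between 14674 and 21568 at GD17.5, between 8158 and 11110 at Day 5, and no higher than 6144 from Day 10 on.

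Most genes followed the sum. The mean FPKM was highest at GD17.5 for 71 of the 76 genes, at Day 0 for 4 and at Day 1 for 1, Rps27, and it was lowest at Day 45 for 55 and at Day 20 for 13. Against Day 60, limma on log2(FPKM + 1) with Benjamini-Hochberg adjustment over all genes called 72 of the 72 tested genes in at least 1 age, where it called 90.7% of all genes tested. At GD17.5, 71 of 72 were higher than at Day 60 (56.4% of all genes tested were). Day 0 had 71 higher genes (43.6% of all genes were higher), Day 1 had 71 (53.4%), Day 3 had 72 (55.7%) and Day 5 had 71 (56.9%). At Day 10, 21 of 72 were higher (35.3% of all genes were) and 1, Rps27a, was lower (10.6% of all genes were), with values near 0 that may be failed estimates, which was not tested. Rps27 was the gene not called at GD17.5, Day 0 and Day 5, and Rps29 the gene not called at Day 1.

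From Day 15 on, no ribosomal protein gene passed the test against Day 60 in limma. Of all genes tested, those called in either direction made up 27.4% on Day 15, 15.9% on Day 20, 7.42% on Day 25, 3.56% on Day 30 and 0.233% on Day 45. At an unadjusted p under 0.05, 0 of the 72 genes passed at Day 15, 2 at Day 20 and 0 at Day 25, 8 were higher at Day 30 and 7 were lower at Day 45. A Dunnett comparison of each gene with Day 60, without adjustment over genes, called 0 from Day 15 to Day 30 and 1 lower at Day 45. All these comparisons share the 3 mice of Day 60. The share of all genes was counted neither for the unadjusted p nor for the Dunnett comparison. Whether those counts depart from that share is therefore not known.

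The size of the change was larger than that of the typical gene up to Day 5. The median log2 fold change of the 72 genes against Day 60 was 2.15 at GD17.5, where the median of all genes tested was itself shifted by 0.56, which left 1.59 between the medians. This distance was 1.47 for Day 0, 1.05 for Day 1, 0.90 for Day 3, 0.71 for Day 5, 0.19 for Day 10 and 0.01 for Day 15. Up to Day 10 the distance also lay above 0 when libraries were scaled by the median of ratios, which brings the median of all genes close to 0: the median of the 72 genes was then 1.36 at GD17.5 and 0.47 at Day 5. The number of single genes called depended on the scaling, and with the median of ratios it was 71 for GD17.5 and 68 for Day 0 but 31 for Day 3, 9 for Day 5 and 0 for Day 10. Of all genes, 35.4% were higher with that scaling for GD17.5, 33.6% for Day 0, 28.5% for Day 3, 26.4% for Day 5 and 22.1% for Day 10, so at Days 5 and 10 the share of the 72 genes was below that of all genes. With upper quartile scaling, 71 genes were higher at GD17.5, then 58 for Day 3, 38 for Day 5 and 6 for Day 10, where 40.7%, 34.2%, 33.3% and 30.2% of all genes were.

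**Figure D2:**
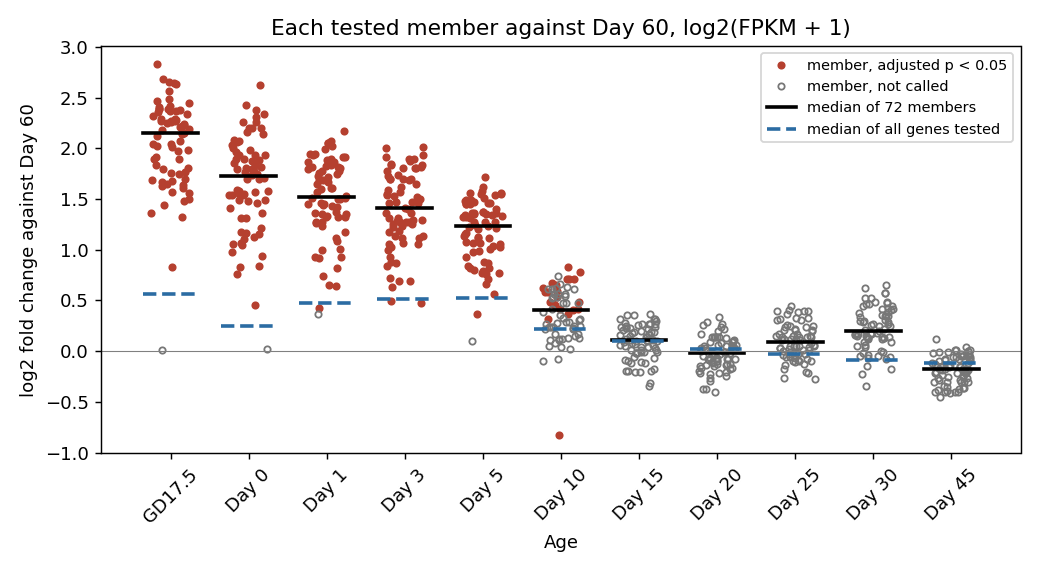
Log2 fold change against Day 60 (vertical axis) of each of the 72 tested ribosomal protein genes by age (horizontal axis); filled points have an adjusted p under 0.05, the solid bar is their median and the dashed bar the median of all 11149 genes tested. The solid bar fell from 2.15 at GD17.5 to 1.24 at Day 5 and 0.41 at Day 10, and no point from Day 15 on is filled.

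The change was not spread evenly over the ages, which themselves lie at unequal distances in days. Between Day 5 and Day 10, 57 of 72 genes fell (34.4% of all genes did) and the median log2 fold change was -0.81, against -0.31 for all genes. Rps6, the substrate of S6 kinase, was at 162, 190 and 201 FPKM at Day 5 and at 86.0, 77.8 and 95.8 at Day 10, so that no mouse of Day 10 came near the lowest of Day 5. Its log2 fold change was -1.08 ± 0.13 (SE; limma adjusted p = 1.97e-07). Rplp0, the base of the stalk that binds elongation factors, went from between 310 and 437 FPKM to between 148 and 196. With upper quartile scaling 9 genes fell at this step (8.39% of all genes did). With the median of ratios 4 fell (7.83% of all genes did), so with that scaling the share of the 72 genes was below that of all genes.

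Between GD17.5 and Day 0, 30 of 72 genes fell (41.4% of all genes did), a share close to that of all genes, and the median was -0.39 against -0.29 for all genes. The count was 15 without mouse 2 of GD17.5, 5 with upper quartile scaling (26.1% of all genes fell) and 2 with the median of ratios (20.8% fell), so with these scalings the share was below that of all genes. The largest of these changes was in Rpl4, a large subunit protein that lines the exit tunnel of the nascent chain. Rpl4 was at 449, 446 and 455 FPKM at GD17.5 and at 231, 243 and 142 at Day 0, with a log2 fold change of -1.17 ± 0.21 (SE; limma adjusted p = 3.74e-05). At Day 1 it was back at 354, 292 and 392 FPKM, and it was among the 2 genes called higher at Day 1 than at Day 0 (23.7% of all genes were). The other was Rps27. Rpl26, Rpl30, Rps16 and Rps4x were lower (7.88% of all genes were), but leaving out 1 mouse took this count from 4 to as few as 0, the lowest without mouse 3 of Day 0. These 4 genes were named for having been called.

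At weaning, between Day 20 and Day 25, Rpl22 alone passed the test and was lower (3.26% of all genes were lower). Rpl22, an RNA-binding protein of the large subunit, was at 16.2, 21.1 and 18.3 FPKM at Day 20 and at 10.6, 14.6 and 11.8 at Day 25, with a log2 fold change of -0.55 ± 0.15 (SE; limma adjusted p = 0.0200). The mice did not overlap. The call was lost without mouse 2 or 3 of Day 20, without mouse 1 or 3 of Day 25, and with median of ratios scaling. Over the whole course Rpl22 went from 40.1, 49.1 and 45.3 FPKM at GD17.5 to 12.6, 14.8 and 15.96 at Day 60, the smallest fold, 3.10, among genes averaging 10 FPKM or more.

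The levels of the genes spanned a wide range. Since most ribosomal proteins are needed in equal numbers and FPKM is per length, the range is given as measured: 22 genes had a mean of at least 100 FPKM over the 36 mice, 33 between 10 and 100, 14 between 1 and 10 and 7 under 1. The 5 highest held 40.7% of the summed FPKM, and the genes under 10 FPKM held 0.725%. The highest was Rpl41, which encodes a very short basic peptide, at a mean of 1092 FPKM. Rpl8 at 557 FPKM, Rps9 at 382 and Rps15 at 320 were also among the 5 highest. Among the lowest genes tested were Rps23 of the decoding centre at 0.68, Rps27 at 0.897, Rpl37 at 1.33 and Rps27a at 1.37.

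Rpl41 was at 1718, 3216 and 2651 FPKM at GD17.5 and at 423, 498 and 620 at Day 60. Rpl8, a protein next to the peptidyl transferase centre, was at 1245, 1688 and 1574 FPKM at GD17.5 and at 187, 251 and 279 at Day 60. For both genes the lowest fetal mouse was above every adult mouse, and this held for 75 of the 76 genes (60.4% of the 11149 genes tested had all 3 mice of GD17.5 above all 3 of Day 60). The exception was Rps27. The ratio of the means of GD17.5 and Day 60 ran from 1.02 to 12.1 over the 76 genes, with quartiles of 4.14 and 5.97 around a median of 4.90. Among the 55 tested genes of at least 10 FPKM it ran from 3.10 to 7.73.

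**Figure D3:**
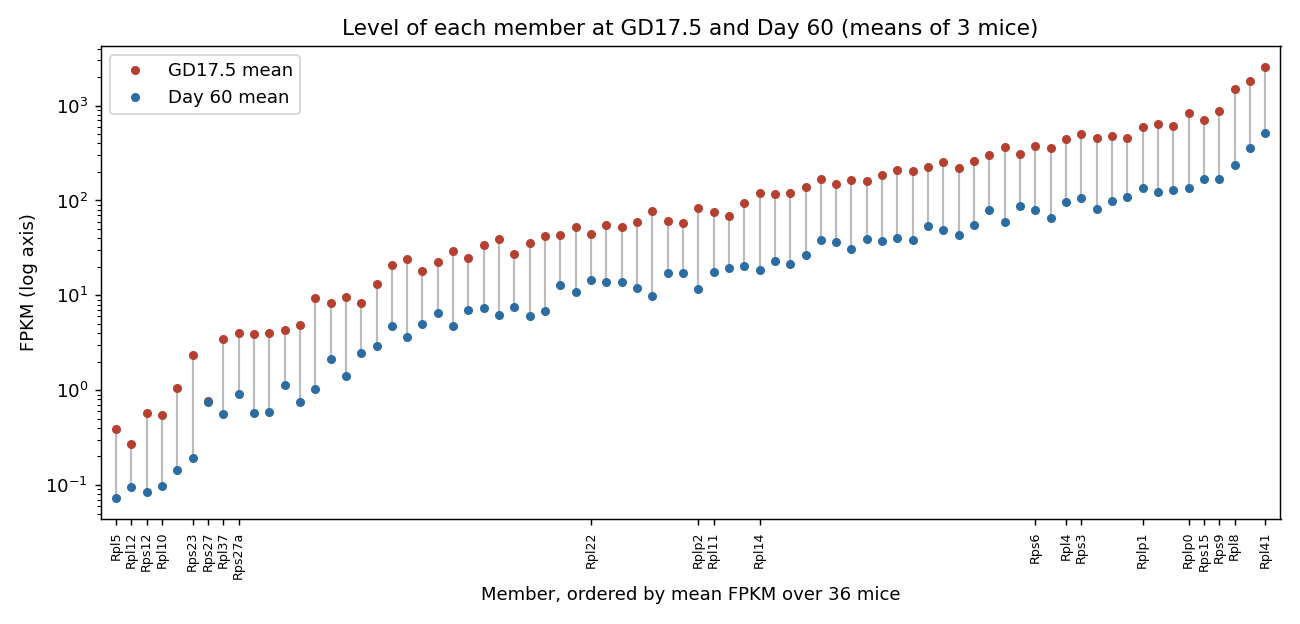
Mean FPKM of 3 mice (log vertical axis) of each of the 76 genes at GD17.5 and Day 60, ordered by mean FPKM over all mice (horizontal axis, with some of the genes labelled). Levels ran from under 1 FPKM to 2528 FPKM for Rpl41 at GD17.5, while the median ratio between the 2 ages was 4.90 and the points of Rps27 nearly coincide.

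The 4 genes that did not pass the filter were Rpl5, Rpl10, Rpl12 and Rps12, with means between 0.133 and 0.228 FPKM. Rpl5 forms the 5S ribonucleoprotein with Rpl11, which was measured at a mean of 31.8 FPKM, and Rpl10 joins the large subunit late in its assembly. Every ribosome holds these proteins, so these values are given as values of the table and not as the expression of the genes. Rpl10 was at 0.535, 0.614 and 0.511 FPKM at GD17.5 and at 0.108, 0.108 and 0.0778 at Day 60. Rpl12 was listed at 0 in 2 mice, and Rpl5 and Rps12 in 1 each.

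The coding sequences of these genes were compared with the mouse genome in the build of the files, mm9, to count how many copies each has elsewhere. Of the 76 genes, 75 had a coding sequence in the annotation used, Rpl41 being the exception. A copy was a stretch of at least 90% identity over at least 80% of the coding sequence outside the gene. The median was 12 copies for the 21 genes under 10 FPKM, 11 for the 33 genes between 10 and 100, and 5 for the 21 genes at or above 100. Counting only copies of at least 97% identity, the medians were 4, 4 and 1. Across the 75 genes, Spearman's rho between the mean FPKM and the number of copies was -0.42, and it was -0.45 for the copies of at least 97%, a description over genes that share libraries and, in part, sequence.

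Rpl8 and Rps3 had 0 copies, and their means were 557 and 213 FPKM. Rpl5 had 7 copies, Rpl12 had 10, Rps12 had 23 and Rpl10 had 11, and for each of these 4 genes the best copy matched 100% over the part compared. The order was not strict: Rpl21, with 80 copies, was at 10.6 FPKM and Rpl29, with 66, at 225. How reads that fit several places were assigned was not stated for these files, so that the level of any gene with close copies is uncertain, and the part of this in the levels was not tested. The ratio of GD17.5 to Day 60 had a median of 4.71 for the 9 tested genes that had no copy of at least 97% identity and of 4.91 for the 62 that had 1 or more.

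**Figure D4:**
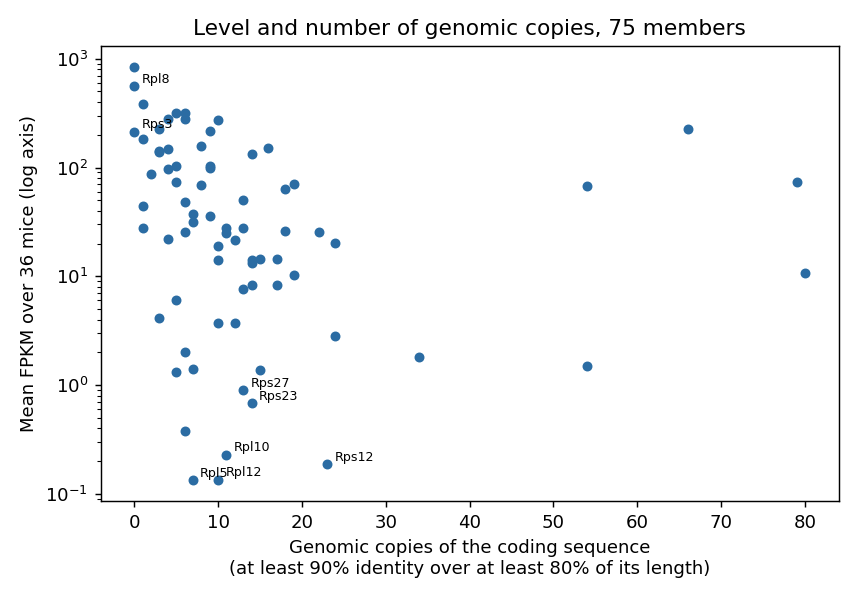
Mean FPKM over 36 mice (log vertical axis) against the number of genomic copies of the coding sequence (horizontal axis) for 75 genes. Rpl8 and Rps3 stand at 0 copies and above 200 FPKM, and Rpl5, Rpl10, Rpl12 and Rps12, at the bottom, have 7 to 23 copies; rho was -0.42.

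Rps27 and Rps27a went apart from the rest, and both are low and have close copies. Rps27 was at 0.537, 0.881 and 0.881 FPKM at GD17.5 and at 0.511, 0.931 and 0.812 at Day 60, which overlapped, and the log2 fold change was 0.01 ± 0.15 (SE; limma adjusted p = 0.939). It was highest at Day 1, with 2.14, 1.91 and 3.02 FPKM, and was 0.91 ± 0.15 (SE) above Day 0 on the log2 scale there (limma adjusted p = 3.84e-05). The best of its 13 copies was identical to its coding sequence. Rps27a, whose protein is made as a fusion to ubiquitin, was at 4.31, 2.84 and 4.86 FPKM at GD17.5 and at 0.858, 0.748 and 1.14 at Day 60. All 3 mice of Day 10 were at 0.0442, 0.087 and 0.103 FPKM, and so was 1 mouse each of Day 30 and Day 45, at 0.027 and 0.0142. The other 31 mice had at least 0.433 FPKM, so the low values form a separate group of 5 libraries that crosses ages. The log2 fold change of Rps27a at Day 10 against Day 60 was -0.82 ± 0.20 (SE; limma adjusted p = 0.00142). Among 864 sets of 3 mice (72 genes at 12 ages) there were 4 in which the highest mouse had at least 4 times the lowest, and 2 of these were Rps27a at Day 30 and Day 45. The others were Rpl37a at Day 30 and Rps23 at Day 60.

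By part of the ribosome, the stalk changed with a median log2 fold change of 2.64 between GD17.5 and Day 60, the small subunit with 2.18 and the rest of the large subunit with 2.02. All 40 tested genes of the large subunit and all 3 of the stalk were higher at GD17.5, and so were 28 of 29 of the small subunit (56.4% of all genes were). Rplp0 was at 726, 976 and 818 FPKM at GD17.5 and at 115, 141 and 145 at Day 60. Its log2 fold change was 2.64 ± 0.15 (SE; limma adjusted p = 1.09e-15). Rplp1 had 390, 688 and 721 FPKM at GD17.5, and Rplp2 had 71.3, 131 and 44.3, a wider spread between mice than that of Rplp0. At Day 60, Rplp1 stood at 92.1, 131 and 179 FPKM and Rplp2 at 9.99, 16.5 and 8.15.

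To see which genes moved apart from the others, the median of the 72 genes was subtracted in each mouse before the fit. As this was done on log2(FPKM + 1), it cancels a scaling of the library for genes well above 1 FPKM. For genes near or under 1 FPKM some of the scaling stays. Against this median, 6 genes were higher at GD17.5 than at Day 60 (5.84% of all genes were) and 11 were lower (80.5% of all genes were). Those above included Rpl14 by 0.60, Rpl8 by 0.58, Rplp2 by 0.57 and Rplp0 by 0.56 on the log2 scale, and Rps26. Rpl14 was at 95.6, 134 and 132 FPKM at GD17.5 and at 12.4, 18.96 and 23.7 at Day 60, with no overlap. Rplp0 kept its call in every fit that left out 1 mouse and lost it with the filter at 5 FPKM, where 1 gene was above, while that of Rplp2 was lost without mouse 1 or 2 of GD17.5 and without mouse 1 or 3 of Day 60. Rpl14 lost its call without mouse 3 of GD17.5 and without mouse 1 or 2 of Day 60, and Rpl8 without mouse 3 of GD17.5.

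Those below included Rps27 by -2.06, Rpl23a by -0.76, Rps27a by -0.71 and Rpl23 by -0.64. These 4 had a mean under 5 FPKM, and the pseudocount of 1 shrinks the fold of such genes: with a pseudocount of 0.1, 3 genes were below, and Rpl23a, Rps27a and Rpl23 lost their calls. Without mouse 2 of GD17.5, Rps27a and Rpl23 also lost theirs, as did Rps27a without mouse 3 of Day 60. Among the 55 genes of at least 10 FPKM, centred on their own median, 4 were above, with Rpl14, Rpl8 and Rplp0 among them, and 7 below, with Rpl22 among them. This restriction was chosen after seeing the data, and the shares of all genes called in this fit are not given here.

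Several genes with known roles were not called apart from the median gene. Rps6 was at 355, 415 and 352 FPKM at GD17.5 and at 66.9, 82.9 and 88.9 at Day 60, with a log2 fold change of 2.22 ± 0.13 (SE). Rpl11, which binds Mdm2 when ribosome assembly fails, changed by 1.98 ± 0.27, Rps19, mutated in Diamond-Blackfan anaemia, by 2.39 ± 0.29, and Rps14, lost in the 5q deletion syndrome, by 2.04 ± 0.37. Rpl3 changed by 2.22 ± 0.15, Rps3 by 2.23 ± 0.14, Rpl13a by 1.81 ± 0.27, Rpl38 by 1.83 ± 0.22 and Rpl39 by 2.29 ± 0.39. All 9 had a limma adjusted p under 0.05 against Day 60.

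The 3 mice of an age often differed together. At GD17.5 mouse 2 had the highest value of 58 of the 72 genes, at Day 1 mouse 3 of 58, at Day 5 mouse 2 of 55, at Day 10 mouse 3 of 62 and at Day 25 mouse 2 of 61. At Day 60 mouse 1 had the lowest value of 53. The genes are therefore not independent replicates of an age, and a count of called genes moves with 1 mouse: the 21 genes higher at Day 10 became 7 without mouse 3 and 13 without mouse 2 of that age, and 10 without mouse 1 of Day 60.

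Genes of other tissues stood out in many livers. The summed FPKM of 10 genes of the exocrine pancreas was 24924 in mouse 1 of Day 60 and 4.85 and 5.68 in the other mice of that age, and it was over 500 FPKM in 17 of the 36 mice. Mouse 1 of Day 0 had a sum of 1301 FPKM over 10 skeletal muscle genes, and mouse 1 of Day 30 stood apart in its scaling. Without these 3 libraries, a check added after seeing the data, the genes higher than Day 60 numbered 71 for GD17.5, 69 for Day 5 and 12 for Day 10. In the fit of all 36 mice, 56.4%, 56.9% and 35.3% of all genes were higher at these ages. Hepatocyte markers were present throughout, with 8 of 9 in the table and a summed FPKM between 8021 at GD17.5 and 78526 at Day 15. The summed FPKM of all genes per library was between 353712 and 450597. The table holds no read counts, and steps among low values of 1615 genes put the depth of the libraries, relative to each other, at 0.887 to 1.15. Of 20349 such values, 56.2% came out within 0.1 of a whole multiple of the smallest value of their gene. The smallest values are themselves counted, so this share is no test of the depths.

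Erythroid and proliferation genes also fell between GD17.5 and Day 60, but not at every step. Of 23 erythroid markers 20 were in the table, all 20 passed the filter and all 20 were higher at GD17.5 than at Day 60. Their summed FPKM was 143540 to 197371 at GD17.5, 73039 to 85059 at Day 0, 25371 to 33706 at Day 5, 5035 to 19526 at Day 10 and 689 to 791 at Day 60. The sum over 15 proliferation genes was 573 to 690 FPKM at GD17.5, 228 to 286 at Day 5, 62.5 to 80.4 at Day 10 and 2.16 to 3.38 at Day 60. Between Day 1 and Day 3 the mean erythroid sum rose from 31179 to 46721 FPKM and the mean proliferation sum from 173 to 260. Other blood cell genes rose between GD17.5 and Day 0, the mean neutrophil sum from 2866 to 4210 FPKM and the mean B lineage sum from 46.9 to 98.6. At GD17.5 the hepatocyte markers went the other way, with 8 of 8 lower than at Day 60. At Day 0 and again at Day 5, 2 of the 8 were higher than at Day 60 and 3 were lower. The mean summed FPKM of these markers was 44660 on Day 0 and 42008 on Day 5. By Day 10 this mean had risen to 68879, and it peaked on Day 15 with 74435. It was 61098 on Day 20 and had returned to 44215 by Day 60. Between Day 5 and Day 10, 2 of the 8 markers were called higher (1.88% of all genes were) and 0 lower. The part of the cell mixture in the fall of the ribosomal protein genes was not tested.

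Some ribosomal proteins and close relatives lie outside the naming rule. Gnb2l1, which encodes the small subunit scaffold Rack1, was at 1277, 1654 and 1589 FPKM at GD17.5 and at 204, 243 and 299 at Day 60, a log2 fold change of 2.60 ± 0.15 (SE; limma adjusted p = 2.36e-15). Rpsa, a small subunit protein also known as the laminin receptor, changed by 2.44 ± 0.24. Fau, the ubiquitin-like fusion of S30, was at 5.65, 10.4 and 9.79 FPKM at GD17.5 and at 3.98, 4.39 and 6.43 at Day 60, which overlapped. Fau changed by 0.68 ± 0.26 and lay 1.40 below the median ribosomal protein gene.

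The tested paralogs changed by less than the median of 2.15 of the 72 genes. Their differences from the genes they resemble were not tested. Rpl22l1 changed by 1.51 ± 0.31, and Rpl36al and Rpl7l1 by 0.78 each. Rps27l, the paralog of Rps27, was at 102, 134 and 125 FPKM at GD17.5 and at 107, 134.7 and 146 at Day 60, which overlapped, with a log2 fold change of -0.10 ± 0.17 (SE; limma adjusted p = 0.615). Of 8 such genes tested, 7 were higher at GD17.5, which became 3 with upper quartile scaling and 2 with the median of ratios, and Rpl3l, Rpl10l and Rpl39l did not pass the filter.

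The rest of the machinery was set beside the ribosomal proteins with lists of genes by role. Of 18 elongation and other translation factors, 16 were higher at GD17.5 than at Day 60 (56.4% of all genes were) and 1 was lower, with a median log2 fold change of 1.80. These factors were listed for pyrimidine tract mRNAs, but the start search found a run in only 4 of the 12 with a promoter entry. Pabpc1, the poly(A)-binding protein, was the highest at 3.58 ± 0.46 (SE), followed by Eef1g at 2.95 ± 0.17 and Npm1 at 2.75 ± 0.35. Eef1a1, the main elongation factor, rose by less, from 1018 FPKM at Day 60 to 1969 at GD17.5, and Eif4a2 was lower at GD17.5, by -1.47 ± 0.25. Of 28 initiation factors, 27 were higher with a median of 1.37, and Eif1ax and Eif3d led with 2.02 and 2.01.

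Genes that build the ribosome changed in the same direction. Of 76 tested ribosome biogenesis genes, 71 were higher at GD17.5 with a median of 1.25, led by the box C/D snoRNP protein Nop56 at 2.95 ± 0.19 and by Nolc1 at 2.66 ± 0.16. Nop56 was at 26.3 FPKM ± 1.3 (SD, n = 3) at GD17.5 and at 2.54 FPKM ± 0.37 at Day 60. Of 13 genes of RNA polymerase I transcription, 13 were higher with a median of 0.99, and Ubtf, which marks active ribosomal DNA, was highest at 2.22 ± 0.14. Among 19 regulators, 10 were higher, a share near the 56.4% of all genes, and 2 lower, with a median of 0.51 that lay 0.05 below that of all genes. Myc, a driver of ribosomal gene transcription, was at 9.69 FPKM at GD17.5 and 0.583 at Day 60, and Deptor, an inhibitor of the mTOR kinase, was lower at GD17.5 by -1.96 ± 0.50. With median of ratios scaling the counts of higher genes were 13 of 18, 17 of 28, 53 of 76, 8 of 13 and 6 of 19, where 35.4% of all genes were higher.

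The gene sets most like the cytosolic ribosomal proteins in kind are the mitochondrial ribosomal proteins and the proteasome subunits. Of 76 mitochondrial ribosomal protein genes, 54 were higher at GD17.5 and 1 was lower, with a median log2 fold change of 0.61, which was 0.05 above the median of all genes. With the median of ratios, 5 were higher and 16 lower and the median was -0.16, so the direction of this family depended on the scaling. Of 37 proteasome genes, 29 were higher and 1 lower with a median of 0.66, and with the median of ratios 5 were higher and 4 lower. The cytosolic ribosomal proteins had 71 of 72 higher and a median of 1.36 in that setting. The difference between the families was not tested.

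**Figure D5:**
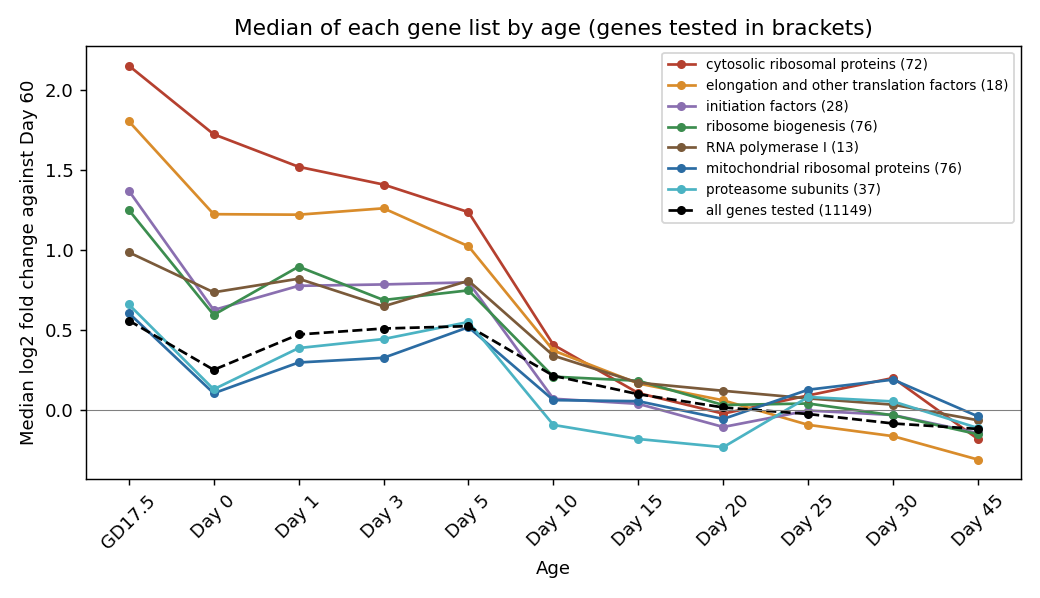
Median log2 fold change against Day 60 (vertical axis) of 7 gene lists and of all 11149 genes tested, by age (horizontal axis), on log2(FPKM + 1). At GD17.5 the cytosolic ribosomal proteins were at 2.15, the translation factors at 1.80, the mitochondrial ribosomal proteins at 0.61 and all genes at 0.56, and by Day 15 the lists lie between -0.18 and 0.18; the order of the mitochondrial ribosomal proteins and 0 depended on the scaling.

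Length and copy number were compared with the change over the 54 genes of at least 10 FPKM that had an annotated transcript, as a description across genes of the same libraries. Spearman's rho of the log2 fold change between Day 5 and Day 10 was -0.50 with the transcript length and -0.45 with the mean FPKM, and it was 0.13 with the number of close copies. For GD17.5 against Day 60, rho was 0.27 with the transcript length, 0.35 with the mean FPKM and -0.10 with the number of close copies. The genes with longer transcripts thus had the larger fall between Day 5 and Day 10, and the part of transcript length in this was not tested.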

How the data were processed

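RNA-Seq was run on livers of 36 mice, 3 at each of 12 ages. The authors deposited FPKM values, 1 per gene and mouse, and the submitters' processing notes name TopHat 1.2.0, Cufflinks 1.0.3 and the build mm9. How reads with several matches were treated is not given in the sources used here. Genes averaging 1 FPKM or more at any age were tested on log2(FPKM + 1), so that a fold change understates that of low genes, with limma 3.58.1 (R 4.3.3, mean-variance trend, 1 mean per age) and Benjamini-Hochberg adjustment over all genes; the threshold was 0.05. The script was tested on simulated data. Copies were counted with BLAST+ 2.17.0 in mm9. RefSeq start sites are in GRCm38.p6. Replicates are separate mice. The files hold no read number per library, and 3 mice per age limit the precision. Tables were also fitted with other pseudocounts, filters, scalings, a replicate block and each mouse left out. The genes and lists were chosen with earlier results of these data known. Genes were named for the 5 highest and lowest levels, fold changes and distances from the median gene, for known roles, for not passing the filter or the tests, and, in other lists, for the 3 largest and smallest fold changes. Rpl21, Rpl29, Rpl37a, Rps26, Rps29 and the genes called between neighbouring ages were named after their values were seen. Some genes the rule names are not reported here.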

Additional observations from a re-analysis of the deposited data

How the results depend on the processing

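The call of 72 of 72 genes in at least 1 age became 71 with median of ratios scaling and stayed within 1.5 times under every alternative run. Against Day 60, median of ratios scaling gave 47 genes higher on Day 1, 31 on Day 3, 9 on Day 5 and 0 on Day 10, and upper quartile scaling gave 38 at Day 5 and 6 at Day 10. Without the 3 libraries that stood apart, 12 were higher at Day 10, and with the filter at 5 FPKM 0 were lower, Rps27a not being tested. Leaving out 1 mouse gave 7 to 24 higher at Day 10, 0 to 1 at Day 15 (1 without mouse 3 of Day 15 or of Day 60) and 0 to 1 at Day 30 (1 without its mouse 3). Between Day 0 and GD17.5, 5 fell with upper quartile scaling, 2 with median of ratios scaling and 15 to 34 with 1 mouse left out. Between Day 1 and Day 0, 1 was higher with the filter at 5 FPKM, 1 with median of ratios scaling and 1 to 3 with 1 mouse left out (1 without mouse 3 of Day 0), and 2 were lower with a pseudocount of 0.1, 1 with scaling to a common sum, 8 with median of ratios scaling and 0 to 7 with 1 mouse left out: 1 without mouse 2 of Day 0 or mouse 1 or 2 of Day 1, 0 without mouse 3 of Day 0 and 7 without mouse 1 of Day 30. Between Day 10 and Day 5, 9 fell with upper quartile scaling and 4 with median of ratios scaling. Between Day 25 and Day 20, 0 fell with median of ratios scaling and 0 to 1 with 1 mouse left out. Relative to the median gene, 1 was above with the filter at 5 FPKM, and below it were 3 with a pseudocount of 0.1, 7 among genes of at least 10 FPKM and 6 to 16 with 1 mouse left out, the fewest without mouse 2 of GD17.5.

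The summed FPKM at GD17.5 was 3.26 times that at Day 60 with upper quartile scaling and 2.83 times with median of ratios scaling. At Day 0 it was 3.03 and 2.90 times, 3.49 times with a common sum, 3.15 times for the median of the genes in place of the sum, and 3.501 to 4.12 times with 1 mouse left out. At Day 5 it was 1.68 and 1.47 times, and at Day 10 1.07 times with median of ratios scaling. The log2 fold change of Rps27 at GD17.5 was -0.23 with upper quartile scaling, -0.0501 with a common sum, -0.31 with median of ratios scaling, -0.0893 without the 3 libraries and -0.0893 to 0.11 with 1 mouse left out. The cause of these changes was not tested.

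Mice share only a replicate number: over 198 pairs of same-numbered mice the correlation of deviations from the age means ran from -0.68 to 0.83 with a median of 0.13, against a median of -0.05 for mice of different number, and mouse 1 had the lowest sum of the genes at 10 of 12 ages. With the replicate block, 33 genes were higher at Day 10 and 1 at Day 15 against Day 60, 10 were lower at Day 1 than at Day 0, and 1 was higher at Day 25 than at Day 20. In the same order, 35.3%, 18.4%, 7.88% and 3.94% of all genes were called in the fit without the block. With 3 mice per age and FPKM without counts, differences that are small beside the spread between mice may have been missed.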
